A study of Canis lupus familiaris with 4 samples.

Results

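The first 250 kb of the 38 dog autosomes held 534 TWIST1 ChIP-seq peaks in replicate 1 and 591 in replicate 2. These peaks were taken by position alone, as those of each deposited list whose start lay below base 250000 on chromosomes 1 to 38. The lists held 73701 and 60370 peaks in all, of which 68505 and 55963 lay from 250 kb onward on the same chromosomes. The limit of 250 kb is a convention of this description and not a feature of the chromosomes.

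The lists came from MDCK cells, an epithelial line of dog kidney, that carried human TWIST1 as a constitutive transgene under puromycin selection and showed a mesenchymal phenotype. The 4 libraries were 2 immunoprecipitated with a monoclonal antibody to TWIST1 and 2 of input chromatin, from 2 independent experiments, with 10 min of crosslinking in 1% formaldehyde and no other treatment. All 4 shared the transgene, so no list from cells lacking human TWIST1 was set against them, and the sources used here do not say whether the line is a single clone. Peaks were on genome build CanFam3.1 and were called separately for each TWIST1 library.

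TWIST1 is a basic helix-loop-helix factor that pairs with E proteins and binds short E-box motifs in enhancers and promoters of genes for cell adhesion and migration. Input chromatin is sequenced without an antibody, so a place where input reads pile up holds many reads whatever TWIST1 does there. Peak callers can set the ChIP signal against that local input, and stretches of very high input are widely masked in the genomes where such lists exist. Dog autosomes are acrocentric, with the centromere and its repeated DNA close to one end. The sequences and genes under the peaks were not analysed here.

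Fold enrichment in these lists is the number of overlapping ChIP fragments at the summit, the pileup, plus 1, over the number expected from the local background, plus 1. The p is that of a Poisson test of the pileup against the same background. Fold and p together fix both numbers, so the local background could be recovered at each peak. The study names input chromatin as its negative control, but how the inputs entered the peak calling is not stated in the sources used here, and no input library was read. The local background is given below as a multiple of the genome-wide background, the lowest value in each list. That lowest value was 2.03 fragments in replicate 1 and 4.33 in replicate 2. With 1 group of 2 libraries no test between conditions was possible. Intervals are exact binomial 95% intervals for shares and ratios of counts, or exact Poisson 95% intervals of the pileup for a fold. They cover counting error only and treat peaks as independent, which close neighbours are not.

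With the 38 autosomes pooled, chromosome starts were denser in peaks than the remaining sequence, and the peaks there had lower folds over a higher local background. Single chromosomes did not all follow. Density exceeded that of the same chromosome beyond 250 kb on 24 autosomes in replicate 1 and on 26 in replicate 2. It was more than 1.5 times as high on 14 and 22. The median fold was below that beyond 250 kb on 18 and 27, and the median background above it on 30 and 27. There were 56.2 peaks per Mb in the first 250 kb against 31.2 from 250 kb onward in replicate 1, a ratio of 1.80 (1.65 to 1.96). Replicate 2 had 62.2 against 25.5 per Mb, a ratio of 2.44 (2.24 to 2.64). The mean ratio of the lists was 2.12 (SD 0.451, n = 2). The starts made up 0.431% of the length up to the last peak of each chromosome, and held 0.773% of the autosomal peaks of replicate 1 and 1.05% of those of replicate 2.

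Median fold enrichment was 2.57 at chromosome starts and 3.06 from 250 kb onward in replicate 1. The same medians were 2.08 and 2.63 in replicate 2. A fold of at least 3 was reached by 31.3% of the 534 peaks and 10.7% of the 591, where all autosomal peaks gave 52.9% and 21.1%. The −log10 p ran the other way, with medians of 4.43 at the starts against 4.07 elsewhere in replicate 1, and 4.61 against 4.10 in replicate 2. A q of 0.05 or lower was met by 271 of the 534 peaks (50.7%) and 304 of the 591 (51.4%), against 34.3% and 33.9% of all autosomal peaks. Peaks at the starts were also wider, at a median of 223 bp against 197 bp in replicate 1 and 222 bp against 196 bp in replicate 2.

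The local background recovered at these peaks was high. Its median was 3.50 times the genome-wide value at the starts and 1.11 times elsewhere in replicate 1, and 4.90 and 1.11 times in replicate 2. Chromosome 37 weighed on these medians, which were 1.75 and 2.23 times without it, and a limit of 500 kb gave 1.35 and 1.43 times. A local background 5 or more times as high as the genome-wide one, called raised below, was found at 248 of the 534 peaks (46.4%) and 293 of the 591 (49.6%). Among all autosomal peaks the share was 0.51% in replicate 1 and 0.714% in replicate 2. Of the 352 autosomal peaks over a raised background in replicate 1, 70.5% lay at chromosome starts, as did 72.5% of the 404 in replicate 2.

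Most of the excess of peaks lay over the raised background. Peaks whose background was not raised had a density at the starts of 0.965 times that elsewhere in replicate 1 (0.856 to 1.08), from 286 peaks. In replicate 2 the ratio was 1.23 (1.10 to 1.38), from 298 peaks, and it was 1.09 (0.959 to 1.23) when the 260 peaks below 2 times the genome-wide value were taken. Fold had a median over these peaks of 3.08 in replicate 1 and 2.63 in replicate 2, against 3.06 and 2.63 for such peaks elsewhere. Their median widths were 202.5 and 205 bp.

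The first 100 kb held most of these peaks. There were 317 of the 534 peaks (59.4%) in replicate 1 and 343 of the 591 (58.0%) in replicate 2 below 100 kb. Of the peaks over a raised background, 77.0% and 71.7% lay there. Density fell from 95.8 peaks per Mb in the first 50 kb to 71.1 from 50 to 100 kb and 45.3 from 100 to 150 kb in replicate 1. Replicate 2 gave 101 (192 peaks), 79.5 and 48.4 per Mb in the same bins.

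The fall did not continue smoothly to the limit. From 150 to 200 kb and from 200 to 250 kb the densities were 32.6 and 36.3 per Mb in replicate 1 and 41.6 and 40.5 in replicate 2. Past the limit, raised backgrounds went on at 12 peaks of replicate 1 and 23 of replicate 2 between 250 and 500 kb, and at 0 of either list between 400 kb and 1000 kb. Few chromosomes carried the raised peaks farther in. They lay on 12 chromosomes in replicate 1 and 14 in replicate 2 in the first 50 kb, and on 7 and 6 from 50 to 100 kb. Each bin from 100 to 250 kb had them on 2 or 3 chromosomes, and each from 250 to 400 kb on 1 or 2. The median background of the 50 kb bins was 8.10 and 7.12 times the genome-wide value in the first pair of bins of replicate 1, and 7.95 and 8.27 times in replicate 2. It was between 1.11 and 1.43 times in the 3 bins that followed, in both lists.

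**Figure D1:**
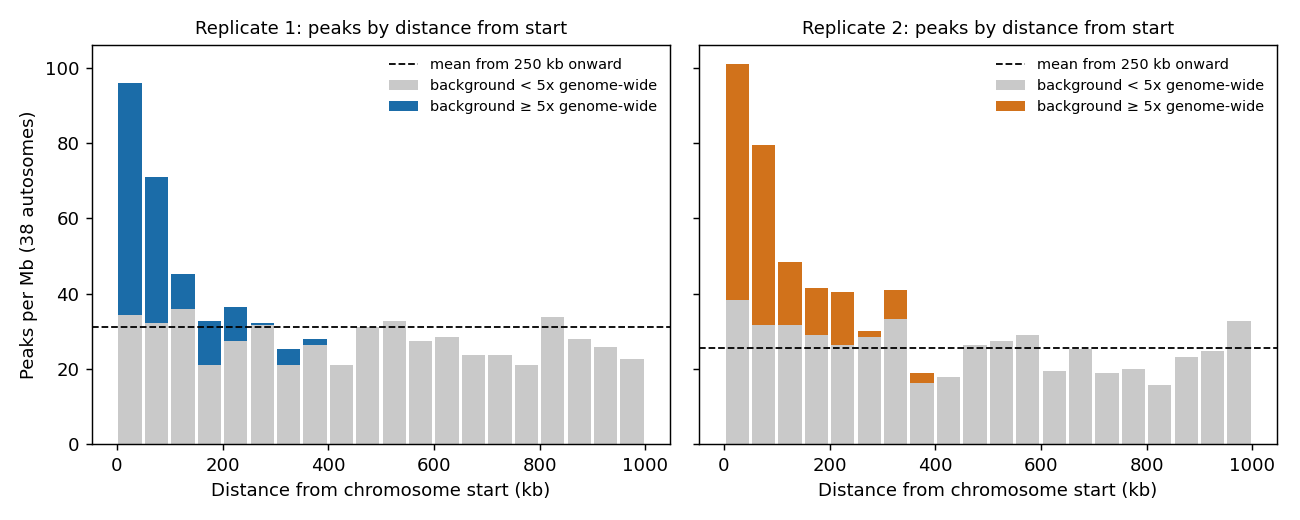
Peaks per Mb over the 38 autosomes in bins of 50 kb by distance from the chromosome start, for each replicate. Coloured parts of the bars are peaks over a raised background, grey parts the others, and the dashed line is the mean density from 250 kb onward. The coloured parts stand highest in the first 2 bins. The grey parts lie on both sides of the dashed line. In replicate 2 those of every bin in the first 250 kb stand above it. In replicate 1 those up to 150 kb stand above it, and those from 150 to 250 kb below it.

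The far ends of the chromosomes did not carry the same density. The last 250 kb before the last listed peak of each autosome held 285 peaks in replicate 1 (30.0 per Mb) and 253 in replicate 2 (26.6 per Mb). Raised backgrounds were found there as well, at 39 peaks (13.7%) on 6 chromosomes and at 32 peaks (12.6%) on 5 chromosomes. Sharing with the other list was 18.9% and 22.1% in those stretches. True chromosome ends may lie beyond the last peak.

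Peaks at the starts were spread unevenly over the chromosomes. Every one of the 38 autosomes had at least 1 such peak in each list, but 21 of them had none over a raised background in either list. Raised backgrounds were present in both lists on 13 chromosomes, in replicate 1 on 14 and in replicate 2 on 16. Spearman's rho between the lists' counts over the 38 chromosomes was 0.78, a description of 2 lists from the same cells.

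The chromosomes with most shared regions were 37, 6, 34, 1 and 3. Together they held 227 of the 534 peaks of replicate 1 (42.5%) and 257 of the 591 of replicate 2 (43.5%), and 203 of the 248 and 233 of the 293 peaks over a raised background. Chromosome 37 had 53 peaks in replicate 1 and 65 in replicate 2, of which 48 and 64 were over a raised background. Its density was 212 peaks per Mb in the first 250 kb against 30.1 beyond in replicate 1, and 260 (65 peaks) against 25.4 in replicate 2. Chromosome 6 had 51 and 46 peaks, and the highest chromosome median of background in replicate 1, at 14.9 times the genome-wide value (14.001 in replicate 2). Chromosome 34 held 45 and 51 peaks, chromosome 1 held 41 and 49, and chromosome 3 held 37 and 46.

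The outer limits of the raised stretches were close in both lists on the chromosomes with most such peaks. They are the first and last raised peaks, and the bases between them are not all covered by peaks. On chromosome 37 the first and last peaks over a raised background spanned 234 to 120357 in replicate 1 and 322 to 118545 in replicate 2. Chromosome 34 gave 199 to 91384 and 202 to 89837, and chromosome 6 gave 4307 to 171632 and 521 to 172076. The stretch on chromosome 1 ran from 3195 to 179086 and from 4691 to 190603. On chromosome 3 it began farther in, at 55287 and 53175, and ended at 227430 and 227850. Chromosome 14 was raised only near the limit, from 203575 to 242104 in replicate 1 and from 207247 to 246339 in replicate 2, with 9 and 19 such peaks within the first 250 kb. Chromosomes with fewer raised peaks differed more, such as chromosome 35 (5587 to 54718 and 5462 to 38883) and chromosome 28 (6134 to 20239 and 5797 to 7487, with 2 peaks in each list).

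Peaks were crowded in these stretches. They covered 12.2% of the bases of the stretch on chromosome 37 in replicate 1 and 16.0% in replicate 2, and 12.5% and 15.7% on chromosome 34. Coverage was lower on chromosome 6 (10.3% and 8.55%), chromosome 1 (7.25% and 6.93%) and chromosome 3 (5.26% and 6.54%). On chromosome 11, with 4 raised peaks in each list, it was 2.07% and 2.73%. From 250 kb onward on the autosomes, the peaks of the lists covered 0.687% and 0.548% of the bases. The part of crowding in the overlap between the lists was not tested.

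**Figure D2:**
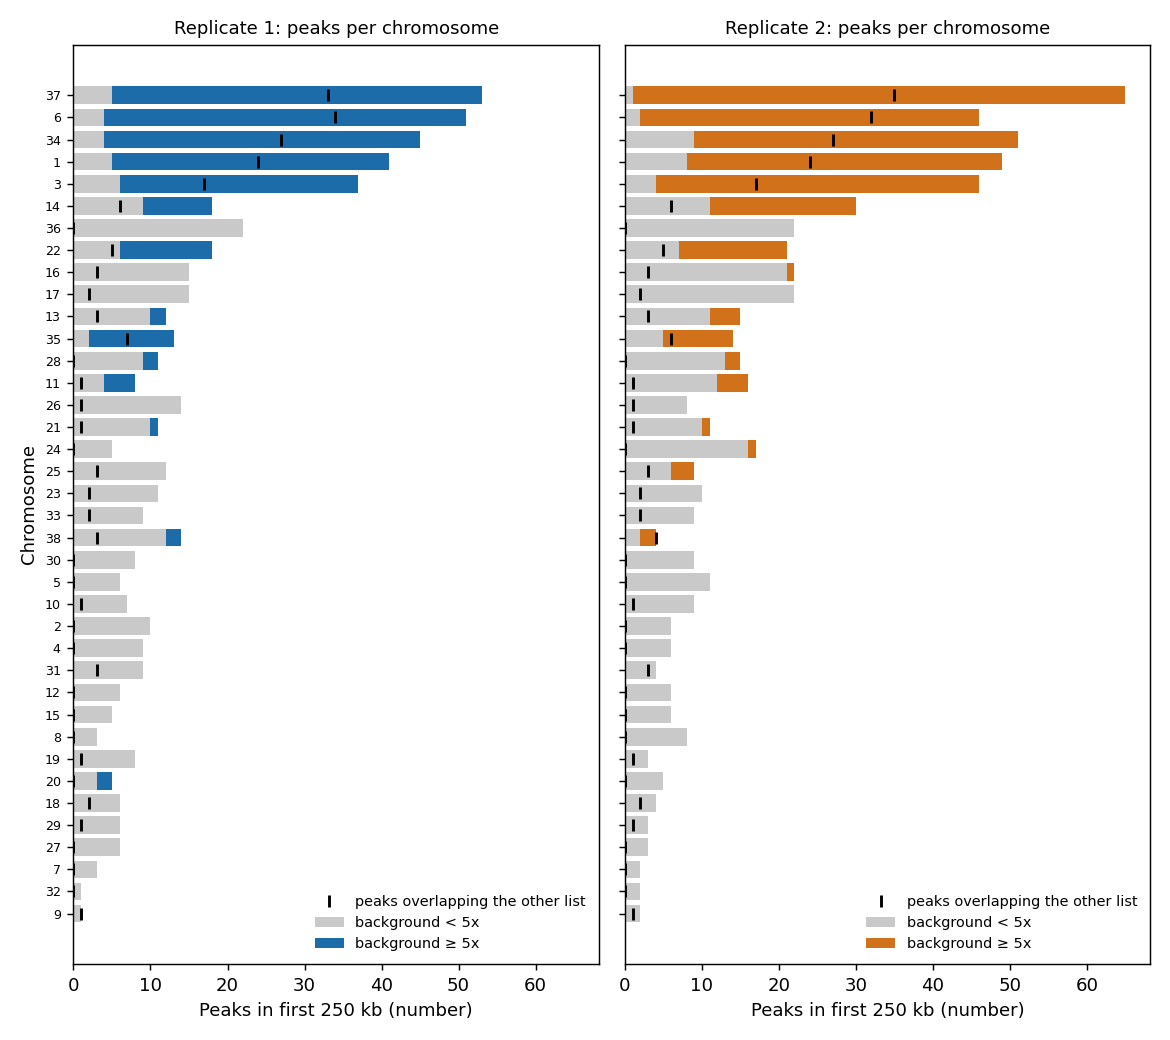
Number of peaks in the first 250 kb of each autosome, for each replicate, ordered by the sum of both lists. Coloured parts are peaks over a raised background, grey parts the others, and black ticks mark how many peaks overlapped the other list. Chromosomes 37, 6, 34, 1 and 3 stand apart in both panels, while chromosome 36 has 22 peaks in each list, none over a raised background and none shared.

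Chromosomes without a raised background at their start differed little from the rest of the autosomes in fold and sharing. On those 21 chromosomes there were 165 peaks in replicate 1, at 1.06 times the density beyond 250 kb (0.903 to 1.23), and 155 in replicate 2, at 1.24 times (1.05 to 1.45). Their median folds were 3.08 and 2.63, the same to these digits as beyond 250 kb. Of these peaks 16 in each list were shared, 9.70% (5.64 to 15.3) and 10.3% (6.02 to 16.2), against 7.05% and 8.80% of the peaks beyond 250 kb on the same chromosomes. On the other 17 chromosomes the density ratios were 2.62 and 3.71, and 45.3% and 38.3% of the peaks were shared.

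Overlap between the experiments was several times more frequent at chromosome starts than elsewhere. A peak of the other list was met by 1 bp or more at 183 of the 534 peaks of replicate 1, 34.3% (30.2 to 38.5), and at 183 of the 591 of replicate 2, 31.0% (27.3 to 34.9). Among all autosomal peaks the shares were 7.06% and 8.62%, and from 250 kb onward they were 6.85% (6.66 to 7.04) and 8.39% (8.16 to 8.62). No overlap crossed the 250 kb limit.

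Sharing followed the background. Over a raised background 150 of 248 peaks in replicate 1 were shared, 60.5% (54.1 to 66.6), and 152 of 293 in replicate 2, 51.9% (45.99 to 57.7). Below it the shares were 11.5% (8.08 to 15.8) and 10.4% (7.18 to 14.4). Peaks from 250 kb onward that stood over a raised background were shared at 55.8% (45.7 to 65.5) of 104 and 53.2% (43.4 to 62.7) of 111. Below 1.5 times the genome-wide background, 6.58% (3.73 to 10.6) of the peaks at the starts were shared in replicate 1 and 6.90% (3.99 to 10.96) in replicate 2, beside 5.16% and 7.15% elsewhere.

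At like background the intervals for starts and for other sequence overlapped in every class of both lists shown in the plot of sharing by background. Between 10 and 20 times the genome-wide value, 62.0% (52.2 to 71.2) of 108 peaks at the starts and 35.3% (14.2 to 61.7) of 17 elsewhere were shared in replicate 1. The same class gave 62.3% (53.7 to 70.4) of 138 and 61.1% (35.7 to 82.7) of 18 in replicate 2. At 20 times or more the shares were 73.9% of 46 and 75.5% of 49 in replicate 1, and 81.5% (61.9 to 93.7) of 27 and 100% (89.7 to 100) of 34 in replicate 2. The few peaks elsewhere leave these comparisons wide.

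**Figure D3:**
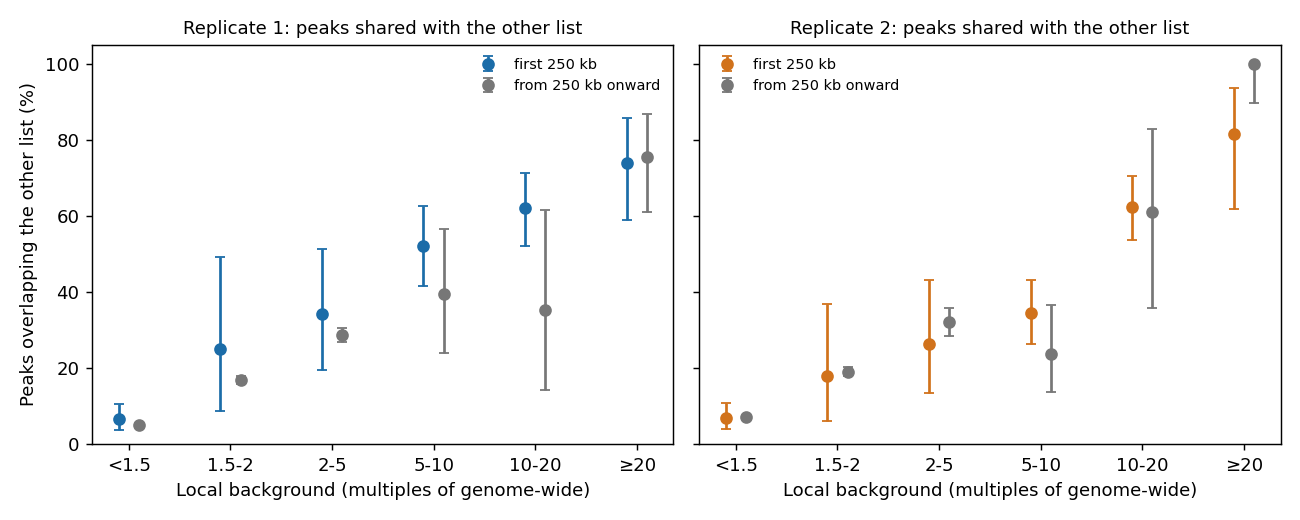
Percentage of peaks that overlapped the other list by 1 bp or more, by class of local background in multiples of the genome-wide value, with exact binomial 95% intervals. Coloured points are peaks in the first 250 kb and grey points those from 250 kb onward. Both rise from below 8% in the lowest class to above 70% in the highest.

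At like p, peaks at the starts were shared more often than other peaks up to a −log10 p of 10. Among peaks with a −log10 p from 4 to 6, 28.4% (22.6 to 34.8) of 225 at the starts and 4.21% (3.99 to 4.45) elsewhere were shared in replicate 1. The figures for replicate 2 were 23.7% (18.3 to 29.7) of 228 and 6.20% (5.90 to 6.51). At a −log10 p of 10 or more the order was reversed in replicate 2, with 69.0% (49.2 to 84.7) of 29 at the starts and 96.8% (95.5 to 97.7) of 1108 elsewhere. In replicate 1 that class gave 69.2% (48.2 to 85.7) of 26 and 82.0% (80.2 to 83.8) of 1882.

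Fold enrichment fell as the background rose. Spearman's rho between them over the peaks at the starts was −0.84 in replicate 1 and −0.86 in replicate 2, and from 250 kb onward it was −0.23 and −0.33. These values are across peaks of 1 library, and the background enters both measures. The same p admits lower folds over a higher background. The lowest −log10 p of the lists was 2.01 and 2.00, and at a p of 0.01 a peak of replicate 1 needed a fold of 2.31 over the genome-wide background but 1.51 over 10 times that background. For replicate 2 these folds were 2.06 and 1.35.

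Peaks over a raised background had many fragments and a small relative gain. At the starts the median pileup over such background was 47 in replicate 1 and 83 in replicate 2, with median folds of 1.92 and 1.70. A fold of at least 3 was reached by 4 of 248 and 0 of 293 of them. The median excess of the pileup over its background was 23.2 and 33.2 fragments, against 6.97 and 9.67 for all peaks from 250 kb onward. Raised peaks elsewhere had like medians of fold, 1.83 and 1.66. Their median pileups were 71 and 69, and their median excess was 30.3 and 30.0 fragments. A fold of at least 3 was reached by 4 of 104 and 1 of 111 of these.

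**Figure D4:**
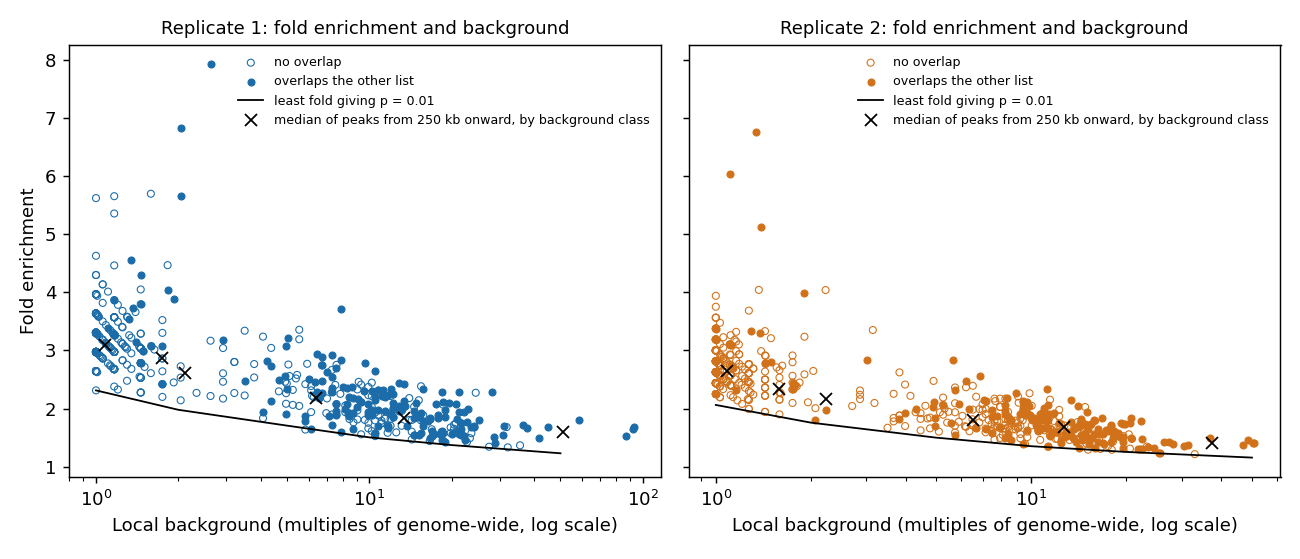
Fold enrichment against local background (log scale, multiples of the genome-wide value) for each peak in the first 250 kb, filled where it overlapped the other list. The line is the least fold that reaches a p of 0.01 over each background, and crosses are medians of peaks from 250 kb onward by class of background. Points run down along the line as background rises, and the points above a fold of 4 lie below 3 times the genome-wide background.

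The overlapping peaks at the starts formed 176 shared regions on 24 chromosomes, of which 129 lay on chromosomes 37 (32 regions), 6 (31), 34 (25), 1 (24) and 3 (17). Both peaks met q of 0.05 or lower in 98 of them. The background was raised in both lists at 139 regions, in 1 list at 10 and in neither at 27. They were 187 to 1323 bp wide (median 381.5 bp), 75.5 kb in all.

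Few shared regions were strongly enriched. Each region takes the values of its peak of lowest p in each list. A fold of at least 3 in both lists was found at 9 regions, all 9 among the 27 without a raised background, and a fold of at least 5 in both at 2. No like counts of shared regions from 250 kb onward, by fold or by q, are given here. Median folds were 1.95 for replicate 1 and 1.66 for replicate 2 at the 139 regions raised in both lists, and 3.31 and 2.78 at the 27 others. Replicate 1 had the higher fold at 148 of the 176 regions, with a median log2 ratio of 0.22. The whole lists differed in the same direction, with the median folds of 3.06 and 2.63 given above for peaks from 250 kb onward.

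The summits of the 2 lists lay closer together at the weakly enriched regions. Their median distance was 30 bp (0 to 923 bp) at the 139 regions raised in both lists and 87 bp (1 to 267 bp) at the 27 regions raised in neither. Summits were within 50 bp of each other at 81 of the 139 (58.3%) and at 7 of the 27 (25.9%). Pileups were larger in the former, with medians of 54 and 96 fragments against 13 and 20, and the part of pileup in the distance was not tested.

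Regions had a like order of background in both lists, while the values themselves differed. Spearman's rho of the background between lists was 0.91 over the 176 regions and 0.81 over the 139 raised in both, while rho of the fold was 0.61 and 0.42. These are descriptions across regions that share libraries and stretches. The background of replicate 2 was 2.14 times that of replicate 1 genome-wide. At the shared regions this ratio had a median of 2.12, with quartiles of 1.78 and 2.55 and a range of 0.802 to 3.82. Regions were classed by the geometric mean of both lists' multiples. The median ratio was then 2.14 below 5 times the genome-wide value (31 regions) and 2.37 from 5 to 10 times (47). It was 2.03 from 10 to 20 times (75) and 1.94 at 20 times or more (23). Classed by replicate 1 alone, the median at 20 times or more was 1.69 (33 regions), and by replicate 2 alone 1.70 (19).

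**Figure D5:**
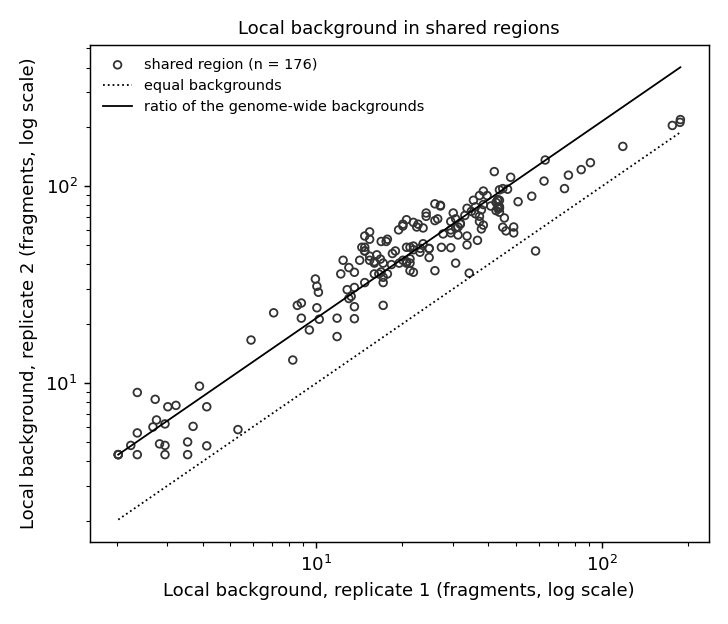
Local background in fragments at the 176 shared regions, replicate 1 on the horizontal and replicate 2 on the vertical axis, both on log scales. The solid line has the ratio of the genome-wide backgrounds, 2.14, and the dotted line marks equal values. Points scatter around the solid line, and the 3 of highest background in replicate 1 lie between the lines.

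The 5 most enriched shared regions, on chromosomes 10, 3, 25, 29 and 16, lay over backgrounds of 1.11 to 2.62 times the genome-wide value, not raised in either list. They were ranked by the lower of the 2 folds. On chromosome 10, the region from 228572 to 229049 was enriched 7.92-fold in replicate 1 (5.90 to 10.4; pileup 49) and 6.76-fold in replicate 2 (4.97 to 8.996; pileup 45). Its −log10 p of 30.5 and 25.1 were the highest of any peak at a chromosome start in the lists. Both summits lay 90 bp apart, over backgrounds of 2.62 and 1.34 times the genome-wide value.

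The second, on chromosome 3 from 34686 to 35094, had a fold of 5.65 in replicate 1 (3.82 to 8.08) and 6.03 in replicate 2 (4.23 to 8.36), with summits 16 bp apart. It lay outside the raised stretch of that chromosome, over 2.04 and 1.11 times the genome-wide background. On chromosome 25, the region from 186378 to 186801 had folds of 4.04 (2.48 to 6.26) and 5.12 (3.61 to 7.07). The fourth region, 141871 to 142277 on chromosome 29, gave 4.56-fold (2.72 to 7.24) and 3.99-fold (2.83 to 5.49), and its summits were 1 bp apart. Chromosome 16 held the fifth, 218176 to 218791, at 3.53-fold (1.96 to 5.97) and 3.29-fold (2.12 to 4.91). In all 5 the intervals of the 2 lists overlapped.

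The 5 shared regions of highest background were each the reverse of this, with pileups of at least 108 fragments and folds of 1.80 at most. They were ranked by the lower of the 2 multiples. The first, on chromosome 38 from 2636 to 3958, had a pileup of 317 over a background of 188 fragments in replicate 1, 92.7 times the genome-wide value and a fold of 1.68 (1.51 to 1.88). Replicate 2 had 307 over 218 there, 50.3 times and 1.41-fold (1.26 to 1.57), with its summit 923 bp away and 2 peaks in place of 1. Chromosome 6 from 5274 to 5774 gave pileups of 309 and 308 and folds of 1.65 (1.47 to 1.84) and 1.46 (1.30 to 1.63).

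The third of these, 1767 to 2295 on chromosome 37, had folds of 1.53 (1.36 to 1.73) and 1.38 (1.22 to 1.55) over 86.9 and 46.9 times the genome-wide background. Chromosome 1 from 6725 to 7215 gave 1.80-fold (1.57 to 2.05) and 1.498-fold (1.32 to 1.70), and chromosome 34 from 3112 to 3452 gave 1.70-fold (1.40 to 2.05) and 1.37-fold (1.19 to 1.59). In the regions other than that on chromosome 38, the summits lay between 1 and 12 bp apart. All 5 passed q of 0.05 in both lists. Pileups on chromosomes 38, 6 and 37 were 317, 309 and 270 fragments in the first list. The second list had 307, 308 and 280 there. The largest pileups anywhere in the lists were 327 and 322, and the shortest peak lengths times 2 are 330 and 324. The part of an upper bound on the pileup in these folds was not tested.

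Some of the peaks of lowest p at the starts had no partner. In replicate 1 the first 3 without overlap were at 43573 to 43949 on chromosome 6 (2.27-fold, 1.88 to 2.73), 195026 to 195438 on chromosome 17 (5.69-fold, 3.70 to 8.43) and 78880 to 79138 on chromosome 34 (2.38-fold, 1.89 to 2.98). Those on chromosomes 6 and 34 stood over 24.5 and 15.5 times the genome-wide background, and the nearest peaks of replicate 2 were 197 and 645 bp away. The peak on chromosome 17 stood over 1.59 times that background, with the nearest peak of replicate 2 at 7235 bp.

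In replicate 2 the first 3 unshared peaks were at 9267 to 9480 on chromosome 20 (4.04-fold, 2.94 to 5.43), 90255 to 90525 on chromosome 37 (2.03-fold, 1.70 to 2.40) and 37034 to 37325 on chromosome 22 (3.35-fold, 2.49 to 4.42). Their backgrounds were 2.23, 14.8 and 3.14 times the genome-wide value, and the nearest peaks of replicate 1 lay 1034, 835 and 6172 bp away.

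The peaks nearest to the 250 kb limit were mostly ordinary. The last inside it in replicate 1, on chromosome 2 from 248856 to 249125, was enriched 2.97-fold over 1.00 times the genome-wide background, and the first outside, on chromosome 7 from 251147, was 2.98-fold over 1.00 times. In replicate 2 the last inside was on chromosome 16 from 249375 (2.69-fold, 1.31 times) and the first outside on chromosome 28 from 250789 (2.92-fold, 1.11 times). Chromosome 14 had peaks over raised background on both sides of the limit, at 5.72 times from 245569 and 5.00 times from 251599 in replicate 2.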

How the data were processed

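TWIST1 ChIP and input chromatin of MDCK cells were sequenced in 2 experiments. The tools were Bowtie2, Picard and MACS2 on build CanFam3.1, per the submitters' processing notes. The sources used here do not give versions, duplicate handling or the pairing of inputs with lists. The deposited fold enrichment is a ratio of pileup to local background, each plus 1, and the deposited −log10 p and q are taken at the summit from a Poisson test. The deposited score is a multiple of the −log10 p and was not used. The deposited summit offset, another unit, counts bases from the peak start. No read totals were at hand, and the pileups show the depth behind each peak.

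Pileup and background were solved from fold and p, each whole pileup being tried; the largest misfit in −log10 p was 0.000317. On simulated data, 100% of 4000 pileups were recovered and 200 of 200 planted overlaps were found. Densities used lengths up to the last peak of a chromosome. Samples were grouped by the replicate number in their titles. Regions named were the 5 shared regions of highest lower fold, the 5 of highest lower background and the 3 unshared peaks of lowest p per list. Genes and E-box motifs were to be named from an annotation of the build and are not given. Alternatives were other limits, a q filter, summit positions, stricter overlap, chromosome 37 left out, low background and single lists. The peaks, the 250 kb limit and the limit of 5 times the background were chosen with earlier results of these data known. Coordinates are 1-based. Computations ran in Python 3.11.15 with pandas 2.3.3, scipy 1.17.1 and numpy 2.4.6.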

Additional observations from a re-analysis of the deposited data

How the results depend on the processing

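No paired analysis was possible because the results come from no test, and the input libraries that share replicate numbers with the TWIST1 libraries have no list. Values are means of both lists. With a limit of 100, 500 or 1000 kb the density ratio of 2.12 became 3.0997, 1.54 or 1.21, the median background of 4.20 times became 7.77, 1.39 or 1.14, the raised share of 48.0% became 60.7%, 35.0% or 22.2%, the shared percentage of 32.6% became 42.0%, 25.3% or 19.6%, and the median width of 222.5 bp became 227.5, 215.5 or 209 bp. At the same 3 limits the median fold of 2.33 became 2.08, 2.63 or 2.76, and the 176 shared regions became 132, 200 or 247. Among peaks with q of 0.05 or lower the density ratio was 3.20, the background 7.49 times, the raised share 61.4%, the width 255 bp, the shared percentage 44.3% and the shared regions 98 in place of 176. Below 5 times the background the ratio was 1.10, the fold 2.85, the width 203.75 bp, the shared percentage 10.97% and the shared regions 27. Without chromosome 37 the background was 1.99 times, the raised share 42.6%, the width 218.5 bp and the shared percentage 29.7%. Overlap of at least 50% of the shorter peak gave a shared percentage of 28.9%, and summits within 100 bp gave 22.1%. Raised limits of 3 and 10 times, chosen after the data were seen, gave 52.7% and 28.4%. Positions by summit changed no value. Single lists gave density ratios of 1.80 and 2.44, folds of 2.08 and 2.57, backgrounds of 3.50 and 4.90 times, raised shares of 46.4% and 49.6%, shared percentages of 31.0% and 34.3% and widths of 222 and 223 bp. The cause of these movements was not tested. Pileups as low as 6 and 11 fragments limit the precision of single folds.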

Other observations

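The largest pileups of the lists are set here beside the shortest peak lengths. The shortest peak was 165 bp in replicate 1 and 162 bp in replicate 2, and these lengths times 2 are 330 and 324. The highest pileup at a chromosome start was 317 and 308, and the highest of each list was 327 and 322. At the starts 3 peaks of replicate 1 and 4 of replicate 2 had a pileup of 250 or more. The sources used here do not say how duplicate reads were treated, and the part of duplicates in these pileups was not tested.

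Of the peaks over a raised background from 250 kb onward, 21 of 104 in replicate 1 and 18 of 111 in replicate 2 lay on chromosome 7, 12 and 22 on chromosome 14, and 9 and 14 on chromosome 32. The first 250 kb of the X chromosome, which the rule leaves out, held 1 peak in replicate 1 (3.64-fold, 1.00 times the genome-wide background) and 0 in replicate 2.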
